A study of Saccharomyces cerevisiae with 4 samples.

Results

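BSC1 (YDL037C), YDL038C and PRM7 (YDL039C) are neighbouring reading frames on chromosome IV of budding yeast. They were taken as the probes that the platform annotation names so, which gave 3 probes, 1 for each name, among 6226 probes and 5547 named genes. Messenger RNA from 4 yeast samples was measured on spotted DNA microarrays with 2 colours. The question of the design was how deleting Snf2, or only its SnAC domain, alters expression. BY4741, a standard laboratory strain, was hybridised against itself, and so was Snf2-2FLAG, the wild type of background PSY2, whose Snf2 carries a FLAG tag. A strain of background PSY3 that lacks the SnAC domain was hybridised against Snf2-2FLAG, and a strain of background BY4741 without SNF2 was hybridised against BY4741. Cultures were harvested from YPD, which is rich in glucose, at 25 C and an optical density of 0.8. With 1 sample in each group, readings carry no replicate error and were not tested.

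Snf2 is the ATPase of SWI/SNF, a chromatin remodeller that slides nucleosomes or removes them, and the SnAC domain lies within it. BSC1 is named for bypass of its stop codon: ribosomes can read through the end of the frame. PRM7 is named as a pheromone-regulated membrane protein. The frames lie on the same strand, and in the direction of transcription BSC1 comes first, then YDL038C, then PRM7. In some laboratory strains the stretch from BSC1 to PRM7 is a single long frame, known as IMI1. The R64 gene table of the reference strain lists 2 of the 3 names as genes and gives YDL038C as a synonym of PRM7, so the YDL038C and PRM7 probes may report on parts of the same transcript. The readings of the 3 probes are therefore not separate evidence.

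Values are deposited log ratios of the named strain over its wild type, read as log2 and taken relative to the median of their own array. Base 2 is an assumption, and folds hold only if it is right. The medians as deposited ran from -0.393 on the SnAC deletion array to 0.104 on the Snf2-2FLAG array. SNF2 itself read -2.14 in the null and -0.19 on the BY4741 array, and had no value on the other arrays. The 3 frames were chosen by their readings on the Snf2-2FLAG array, where they stood highest, with the other arrays also known. Their readings below are therefore a description. In these cultures, fewer cells that express a gene and less RNA per cell cannot be told apart.

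On the Snf2-2FLAG array, where both channels carry the same strain label, the 3 frames were the highest of all 5669 features with a value. PRM7 read 1.887, YDL038C read 1.788 and BSC1 read 1.784, which are 3.70-fold, 3.45-fold and 3.44-fold above the array median. All 3 of 3 were past 2-fold above the median, against 0.0882% of all features. That share is 5 features with the 3 frames among them, and this array is the one that chose them. They differed among themselves by 0.103. The next feature was DBP2, an RNA helicase, at 1.12, a gap of 0.663 below the lowest of the 3. After it came the fatty acid desaturase OLE1 at 1.02 and RRP12, which serves ribosome export, at 0.97. The helicase DHR2, which acts in rRNA processing, read 0.95 and the adenine deaminase AAH1 read 0.91. On the low side of this array 12 features, or 0.212%, were past 2-fold below the median, the lowest at -1.524. The central 99% of all features ran from -0.74 to 0.74. The 3 frames lay above it, which their choice from this array fixed in advance. The labels do not say whether separate cultures supplied the channels, and what set these ratios was not tested.

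On the BY4741 array, the other self-hybridisation, the frames also lay at the high end, at a smaller size. YDL038C read 0.758 and BSC1 read 0.656, or 1.69-fold and 1.58-fold above the median, and PRM7 had no value. They ranked 5 and 6 from the top among 5808 features and lay above the central 99%, whose upper end was 0.43. Neither of the 2 measured frames was past 2-fold above the median, against 0.0344% of all features. The Snf2-2FLAG reading exceeded the BY4741 reading by 1.13 for BSC1 and by 1.03 for YDL038C. Those differences ranked 2 and 4 from the top among 5407 features measured on both arrays, where 0.074% of features were at least 2-fold higher on the Snf2-2FLAG array. That share is 4 features, BSC1 and YDL038C among them. As the Snf2-2FLAG readings chose the frames, high ranks in this difference follow in part from the choice.

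**Figure D1:**
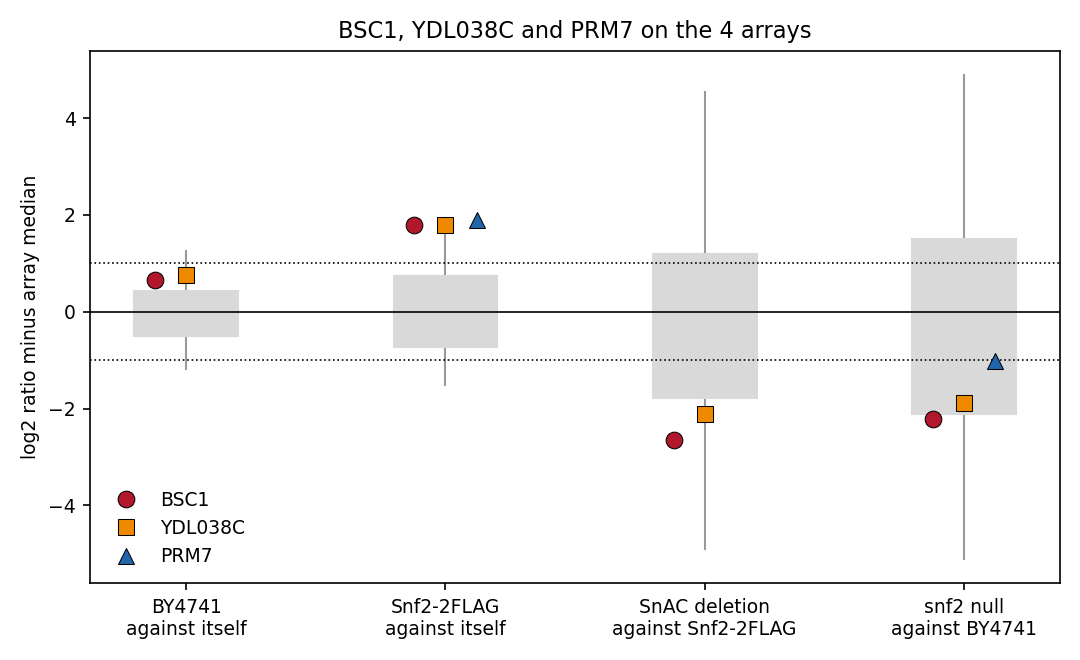
Log2 ratio minus the array median (vertical axis) of BSC1, YDL038C and PRM7 on the 4 arrays, with the grey box for the central 99% of features, the thin line for the full range and dotted lines at 2-fold. The frames sit above the box on both wild-type arrays, with PRM7 at 1.887 on the Snf2-2FLAG array, and below the median on both mutant arrays, where BSC1 is the lowest at -2.657 and -2.222.

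In both mutants the same frames lay on the low side. In the SnAC deletion, BSC1 read -2.657 and YDL038C read -2.117, which are 6.31-fold and 4.34-fold below the array median, while PRM7 had no value. BSC1 ranked 7 and YDL038C ranked 18 from the bottom among 5890 features. Both of the 2 measured frames were past 2-fold below the median, against 1.19% of all features. Both also lay below the central 99% of the array, whose lower end was -1.79. As deposited, without centring, they read -3.05 and -2.51.

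In the null, BSC1 read -2.222, YDL038C read -1.883 and PRM7 read -1.015. These are 4.67-fold, 3.69-fold and 2.02-fold below the array median. The 3 frames ranked 27, 39 and 91 from the bottom among 6031 features. All 3 of 3 were past 2-fold below the median, against 1.59% of all features. PRM7 cleared the 2-fold bound of -1 narrowly, and BSC1 was the only one of the 3 below the central 99%, whose lower end was -2.10.

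The readings were close together on the wild-type arrays and spread apart on the mutant arrays. The range over the measured frames was 0.102 on the BY4741 array (2 frames) and 0.103 on the Snf2-2FLAG array (3 frames). It was 0.54 in the SnAC deletion (2 frames) and 1.21 in the null (3 frames). PRM7 enters the range only where 3 frames were measured. For BSC1 and YDL038C alone the gaps were 0.102, 0.004, 0.54 and 0.339 in that order, widest in the SnAC deletion. In the null the order followed the direction of transcription, with BSC1 lowest and PRM7 least low. This order was not particular to the null. From lowest to highest it was the same on the Snf2-2FLAG array, and BSC1 lay below YDL038C on every array. The size of the gap between probes can be set beside genes that have several probes on the array. In the null, YDL038C and PRM7, listed as 1 gene in R64, differed by 0.868, whereas 29 genes with several measured probes differed by a median of 0.085 and at most by 0.397. Those genes were not matched to the frames in the size of their readings. Whether probes of strongly lowered genes differ more was not tested. On the Snf2-2FLAG array the same pair differed by 0.099, and 14 of 26 such genes differed by as much or more. BSC1 and YDL038C belong to different genes in R64, so probes of the same gene are not a like measure for them. They differed by 0.54 in the SnAC deletion, just beyond the largest of 28 such genes at 0.53. In the null they differed by 0.339, where 4 of 29 genes differed by as much or more.

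Set directly against each other, the mutants differed by less than 2-fold at the measured frames, as they did at nearly all features. BSC1 was lower in the SnAC deletion than in the null by a difference of -0.435, and YDL038C by a difference of -0.234, over 5790 features measured on both. Neither difference was past 2-fold, which 0.0864% of features (5) were in that direction and 13 features in the other. Staying within 2-fold is thus near the background and no result about the frames. The central 95% of all features ran from -0.39 to 0.37, and the central 99% from -0.66 to 0.74. BSC1 lay outside the first and inside the second, and YDL038C inside both. The difference for PRM7 cannot be given. As the mutants were hybridised against different wild types, the difference includes any difference between those strains.

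The SnAC deletion and the Snf2-2FLAG self-hybridisation share the Snf2-2FLAG strain, and the null and the BY4741 self-hybridisation share BY4741. Side by side, BSC1 read 1.784 on the Snf2-2FLAG array and -2.657 in the SnAC deletion, a difference of -4.44. YDL038C read 1.788 and -2.117, a difference of -3.90. These ranked 3 and 5 from the bottom among 5443 features, of which 1.93% were at least 2-fold lower. The subtracted Snf2-2FLAG readings are those that chose the frames, so these ranks are partly built in. On the SnAC deletion array alone the ranks were 7 and 18 from the bottom among 5890 features. For the null minus BY4741, BSC1 gave -2.88 and YDL038C gave -2.64, ranking 15 and 21 from the bottom among 5705 features, of which 1.63% were at least 2-fold lower. The part of each difference that comes from the wild-type array is 1.78 or 1.79 for Snf2-2FLAG and 0.66 or 0.76 for BY4741. Each mutant reading is already a ratio over its wild type, so these differences are not drops from a wild-type level.

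**Figure D2:**
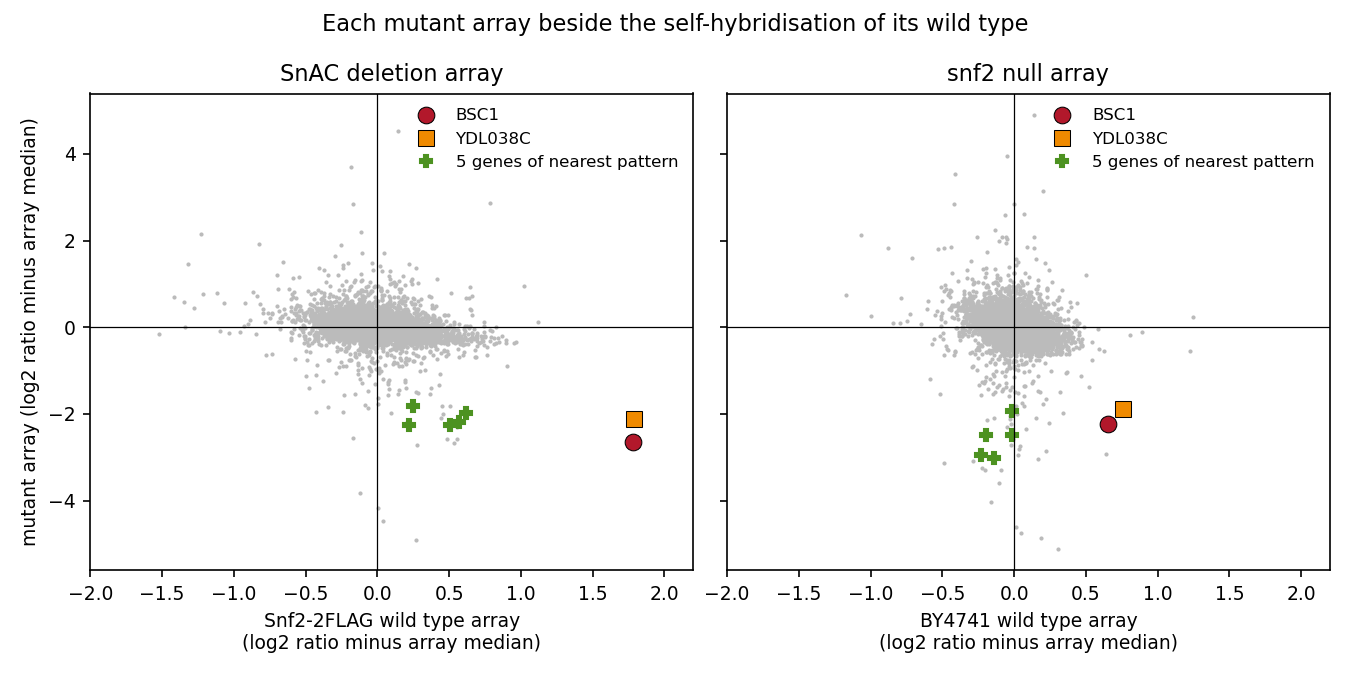
Log2 ratio minus the array median of every feature on the SnAC deletion array against the Snf2-2FLAG array (left) and on the null array against the BY4741 array (right), 1 grey dot a feature. BSC1 and YDL038C stand at the lower right of both panels, at 1.78 and 1.79 on the horizontal axis of the left panel, and the 5 genes of nearest pattern (crosses) lie far to their left. PRM7 has no value on the SnAC deletion and BY4741 arrays and is not drawn.

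Among features measured on all 4 arrays, none lay as near to BSC1 and YDL038C as they lay to each other. The choice of the frames fixed this in advance and it is no result. On the Snf2-2FLAG array alone the next feature lay 0.663 below the lowest frame, more than the 0.646 between BSC1 and YDL038C. Likeness was measured as the Euclidean distance over the 4 centred values from the mean of BSC1 and YDL038C, among 5134 features measured on all 4 arrays. BSC1 and YDL038C lay 0.646 apart. The nearest named gene was the Ty1 retrotransposon reading frame YAR009C, at a distance of 1.59, with 0.61 on the Snf2-2FLAG array, -0.19 on the BY4741 array, -1.98 in the SnAC deletion, against -2.49 in the null. The meiotic telomere gene NDJ1 followed at 1.79, and the Ty1 frame YMR050C also at 1.79. VTC4, the catalytic subunit of the polyphosphate polymerase, lay at 1.796, and MOR1 (YDR366C) at 1.82. All 5 were low in both mutants, from -1.82 to -2.25 in the SnAC deletion and from -1.94 to -3.03 in the null. On the wild-type arrays these 5 read lower than BSC1 and YDL038C, with 0.22 to 0.61 on the Snf2-2FLAG array and -0.23 to -0.02 on the BY4741 array. PHO89, a phosphate transporter with no value in the SnAC deletion, could not enter this ranking and was picked after its values were seen. It read 0.643 on the BY4741 array, beside BSC1 at 0.656, then 0.881 on the Snf2-2FLAG array and -2.923 in the null, so it shared the side of the frames on each array that measured it. These values rest on 4 arrays, so likeness is a description of these readings only.

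The 2 genes next to the frames on each side read near the array median or moderately below it. Next to PRM7, the N-terminal acetyltransferase subunit NAT1 read -0.04 in the SnAC deletion and 0.09 on the Snf2-2FLAG array, and lay at the median in the null. The silencing deacetylase SIR2, beyond it, read -0.135 in the SnAC deletion, -0.39 in the null and 0.12 on the Snf2-2FLAG array. On the BSC1 side, the tRNA pseudouridine synthase PUS9 read -0.26, -0.13 and 0.09 in the same order. GPR1, a glucose-sensing receptor, read -0.16 in the SnAC deletion, against -0.24 in the null, with no value on either wild-type array.

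Over the 10 genes on each side, 0 of 20 were at least 2-fold below the median in either mutant, against 1.19% of all features in the SnAC deletion and 1.59% for the null. On the Snf2-2FLAG array 0 of 19 were 2-fold above it, against 0.0882%. These counts are near those shares and say nothing particular about the neighbours. The medians of these 20 neighbours were -0.01 for BY4741, 0.09 for Snf2-2FLAG, 0.01 in the SnAC deletion, against 0.05 in the null, where the median of all features is 0. In the null 1 of 20 was 2-fold higher, against 1.26% of all features. That gene was STP4, which encodes a zinc finger protein, at 1.25 in the null, against 0.54 in the SnAC deletion. The cell wall glucan gene KNH1 read 0.71 in the null, with a like reading of 0.79 in the SnAC deletion. DBP10, a helicase of ribosome assembly, lay on the same side of the median as the frames on every array. It read 0.763 on the Snf2-2FLAG array, above the central 99%, and 0.215 on the BY4741 array. In the SnAC deletion it read -0.448, against -0.321 in the null. RRP12 and DHR2, which are not among these neighbours, lay on the same sides on every array. The share of all features that did so was not counted. The splicing factor PRP11 read -0.52 in the null.

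**Figure D3:**
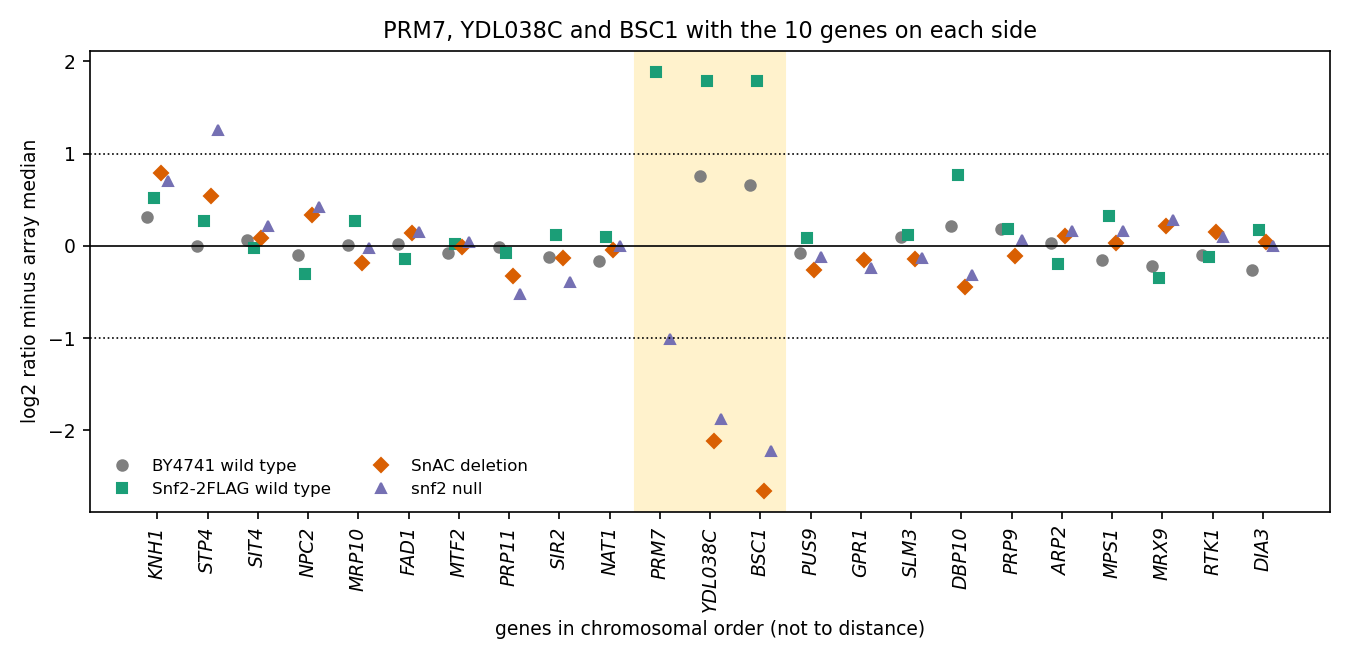
Log2 ratio minus the array median (vertical axis) of PRM7, YDL038C and BSC1, shaded, and of the 10 genes on each side in chromosomal order, with a symbol for each array and dotted lines at 2-fold. Outside the shaded frames the only reading past a dotted line is STP4 in the null, at 1.25.

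Genes that share a name or a pathway with the frames were compared from lists. Of the other PRM genes, 9 had values on all arrays, and 0 of 9 were past 2-fold in either direction on any of them. Of all features, 0.0344% were that high and 0.0517% that low on the BY4741 array, and 0.0882% and 0.212% on the Snf2-2FLAG array. The shares were 0.866% and 1.19% in the SnAC deletion, then 1.26% and 1.59% for the null. With so few features past 2-fold, counts of 0 in short lists are near the background and no result about the list. Their medians were 0.06 for BY4741, 0.085 for Snf2-2FLAG, -0.08 in the SnAC deletion and -0.135 for the null. PRM6 read -0.36 in the null, PRM4 read -0.345 in the SnAC deletion and PRM8 read -0.29 on the Snf2-2FLAG array, the largest readings of the other PRM genes. Those 9 ran from -0.29 to 0.27 on the Snf2-2FLAG array, where PRM7 read 1.887. PRM7 was chosen for its reading there, so its distance from them was fixed in advance and is no result.

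The other stop codon bypass genes with a probe of that name, BSC4, BSC5 and BSC6, were within 2-fold wherever they had a value, which at these shares is also near the background. BSC5 read -0.32 in the SnAC deletion, against -0.19 in the null, BSC4 read -0.12 and -0.18, and BSC6 read 0.10 and 0.07. On the Snf2-2FLAG array BSC6 read 0.29 and BSC5 read -0.02. The flocculins, cell wall proteins that make cells stick together, held 0 of 5 members past 2-fold on any array that measured them, again near the background. FLO10 read 0.58 in the SnAC deletion, FLO1 read 0.30 in the null, FLO5 read 0.28 on the Snf2-2FLAG array and FLO9 read 0.25 in the null.

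Pheromone response and a-specific genes were near the median on both wild-type arrays and partly low in the mutants. Their median was 0.05 in BY4741 and 0.06 in Snf2-2FLAG, with 0 of 18 past 2-fold on each, near the shares of all features above. In the SnAC deletion the median was -0.15 and 3 of 19 were at least 2-fold lower, against 1.19% of all features. In the null the median was -0.43 and 4 of 18 were at least 2-fold lower, against 1.59% of all features. The a-factor genes MFA1 and MFA2 read -1.66 and -1.43 in the null, against -1.11 and -0.73 in the SnAC deletion. BAR1, the protease that degrades alpha-factor, read -1.38 and -1.20, and FAR1, which arrests the cycle in response to pheromone, read -0.93 and -1.05. FAR1 thus stayed within 2-fold in the null, where SST2 passed it at -1.03, with -0.85 in the SnAC deletion. Other members went the other way. In the SnAC deletion 4 of 19 lay above the median, and in the null 6 of 18, with FIG2 highest at 0.686 and 0.489. On the Snf2-2FLAG array 12 of 18 members lay above the median, with FUS2, which serves cell fusion, highest at 0.33, while MFA1 read -0.43 and MFA2 read -0.575, the 2 lowest of the list. FUS2, SST2 and FIG2 were named after their values were seen.

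**Figure D4:**
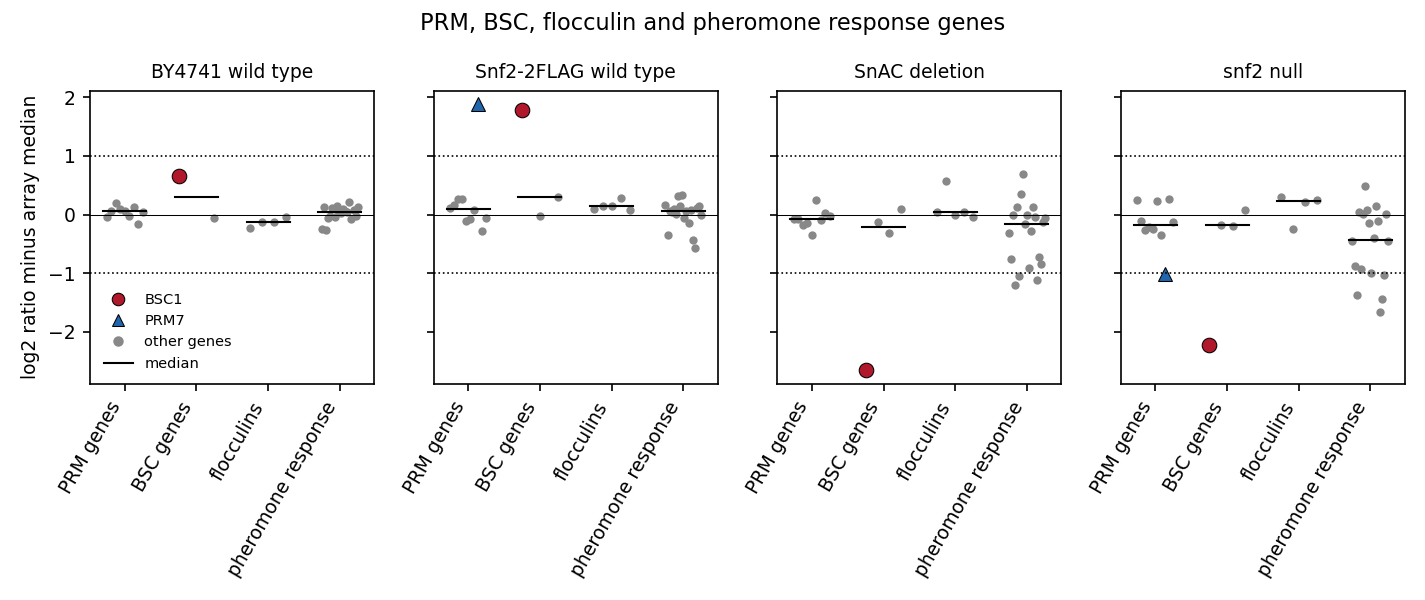
Log2 ratio minus the array median (vertical axis) of the PRM, BSC, flocculin and pheromone response genes on each array, 1 point a gene, with a black bar at the list median and dotted lines at 2-fold. PRM7 (triangle) and BSC1 (large circle) read 1.887 and 1.784 on the Snf2-2FLAG array. That array chose them, so standing apart from their lists there was fixed in advance. Only BSC5 and BSC6 are drawn beside BSC1 on it. In the null 4 pheromone response genes lie below the lower dotted line.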

How the data were processed

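Poly(A) RNA from 4 samples was labelled with Cy3 and Cy5, and each sample named 2 scans of opposite dye orientation, per the labels. The values analysed are 1 log ratio per probe and sample, deposited by the authors and read here as log2 of channel 1, the named strain, over channel 2, its wild type. Their base, centring, background correction, filters and the way scans were combined are not given in the sources used here. Scale and centring therefore stay unknown, while the direction rests on the channel labels, with SNF2 in the null as a check. Medians of the deposited values were -0.125, 0.104, -0.393 and 0.003 for BY4741, Snf2-2FLAG, the SnAC deletion and the null, and 396, 531, 307 and 165 probes had no value. The number of arrays limits the precision.

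Names came from the platform annotation, with current symbols and gene order from the R64 gene table: 1 gene name was found for 5578 of 6226 probes, none for 648 and several for 0. Of 5547 named genes, 5542 matched R64. Probes of the same gene were averaged (30 genes), giving 6195 features, and each array was centred on its median. A feature passed the size rule at 2-fold or more from that median. With 1 sample per group no test was possible. Named genes are the 3 frames, the 5 nearest patterns, the features down to rank 8 on the Snf2-2FLAG array, the 2 genes on each side, and up to 4 members of each list by largest size on any array. The members and lists were chosen with earlier results of these data known. Promoter and protein sequences were not analysed here. The procedure was tested on simulated data. Python 3.11.15 was used with pandas 2.3.3, numpy 2.4.6, scipy 1.17.1 and matplotlib 3.10.9.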

Additional observations from a re-analysis of the deposited data

How the results depend on the processing

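The readings of the 3 frames kept their direction under every alternative run, which were the values as deposited, a 10% trimmed mean, medians over features on all 4 arrays or over named genes, single probes, folds of 1.5 and 3, subtraction of the wild-type array, and, chosen after seeing the data, YDL038C averaged with PRM7. Of the comparisons of frame readings with an alternative, 77 kept their side of the fold bound. Several of these alternatives could hardly move a reading, so the count says little. The fold settings keep the value itself, each frame has 1 probe, and averaging YDL038C with PRM7 leaves BSC1 as it was. At 1.5-fold the BY4741 readings of 0.656 for BSC1 and 0.758 for YDL038C passed, and at 3-fold the PRM7 reading of -1.015 in the null did not. Averaged with YDL038C, PRM7 read -1.45 in the null. The differences between the mutants kept their direction and stayed within the bound, though as deposited they grew to -0.831 for BSC1 and -0.63 for YDL038C, since the SnAC deletion array is displaced as a whole. Counts over all features moved more. At 1.5-fold, 9 and 15 features were above and below in BY4741, 90 and 60 in Snf2-2FLAG, 184 and 151 in the SnAC deletion, 258 and 197 for the null, and 49 and 42 in the difference of the mutants. At 3-fold these pairs were 0 and 0, 3 and 0, 12 and 32, 27 and 48, and 3 and 2, and the 3 features above in Snf2-2FLAG were the frames themselves. As deposited, 5 were below in BY4741, 9 above in Snf2-2FLAG, 20 above and 145 below in the SnAC deletion, and 4 above and 38 below in the difference. The share of calls that were above in the SnAC deletion thus differed, with 51 above and 70 below after centring. Subtracting the wild-type array gave 102 above in the SnAC deletion. No paired analysis was possible because each group held 1 sample. Without a signal level, readings near background cannot be told from the rest.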
